A study of Mus musculus with 9 samples.

Results

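The cGAS-STING pathway detects DNA in the cytosol and is named in the title of the series, which concerns inhibition of P2RX7 in light-induced retinal degeneration. Its 10 components described here were picked by gene symbol, and all 10 had a row among the 55414 genes of the count table. They are the DNA sensor Cgas, the DNA-binding protein Ifi204, the Z-form nucleic acid sensor Zbp1, the adaptor Sting1, the kinases Tbk1 and Ikbke, the transcription factor Irf3, the cytokine gene Ifnb1, and the enzymes Trex1 and Samhd1. Retinas of Balb/c mice were sequenced in 3 groups of 3 libraries, namely a light damage model with A74, the light damage model alone, and control. The labels do not say what A74 is or give its dose, its vehicle, the light exposure or the age of the animals. Nothing in them tells whether replicates are different animals, and the tests below therefore gauge only how far these libraries spread, which may be technical in part. Y-linked counts, given below, differ within control and within light damage, so the libraries of these groups are not all repeats of the same RNA.

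In this pathway cGAS binds double-stranded DNA and makes the second messenger cGAMP, which is bound by STING on the endoplasmic reticulum. STING then moves to the Golgi and recruits TBK1 and its relative IKKε (the product of Ikbke), which phosphorylate IRF3, and phosphorylated IRF3 enters the nucleus and switches on Ifnb1 and other genes. Most of these steps are changes in protein binding, location and phosphorylation, which RNA counts do not measure. In the retina, microglia are the resident immune cells, and rods are the most abundant photoreceptors.

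The light response of the pathway genes was uneven. Irf3 was lower after light damage than in control and higher with A74 than with light damage alone. Ifi204 and Zbp1 had at least 64 counts in 2 of the 3 light damage libraries and at most 8 counts in each of the other 7 libraries. Cgas, Sting1, Tbk1, Ikbke and Samhd1 did not pass the test in any comparison, and Ifnb1 and Trex1 had 0 counts in all 9 libraries.

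Of the 10 components, 6 passed the filter on low counts, and 4 did not, among them the 2 at 0. After light damage, none of the 6 was called higher than control and 1 was called lower at an adjusted p under 0.05, while 25.8% of all 17272 genes tested were called, 13.0% higher and 12.8% lower. With A74 against light damage, 1 of the 6 was called higher and none lower, against 18.3% of all genes called, 9.07% higher and 9.19% lower. With A74 against control, none of the 6 was called, where 0.892% of all genes were, 0.591% higher and 0.301% lower, and DESeq2 called none of the 6 either. None of the 6 had an unadjusted edgeR p under 0.05 in that comparison. The median log2 fold change of the 6 was 0.01 for light damage against control, where that of all genes was also 0.01, and −0.25 for A74 against light damage, where that of all genes was −0.00. The value of −0.25 lies between 2 sets of components. Cgas, Sting1 and Ikbke had few counts and were negative and uncalled, while the abundant Tbk1, Samhd1 and Irf3 were positive. A74 against light damage and light damage against control share the light damage libraries, so a chance deviation in these moves both comparisons in opposite directions.

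Library totals ran from 14787972 to 18740434 counts, and 3 counts corresponded to 0.156 to 0.212 CPM, the count scaled to library size with TMM factors. The summed level of 9 rod markers was 52489 to 54993 CPM with A74, 31401 to 45974 CPM after light damage and 53766 to 58700.2 CPM in control, so photoreceptor RNA was abundant in every library. Libraries of a group were not alike. Y-linked genes gave 4249 to 5832 counts in light damage replicates 1 and 2 and control replicates 1 and 2, and 0 counts in the other 5. A list of 8 genes of anterior eye tissue, chosen in earlier work with these data, summed to 138 CPM or more in light damage 1 and 2, control 1 and 2 and A74 1, and to 15.9 CPM or less in the other 4. Of the 5 libraries without Y-linked counts, light damage replicate 3 had 1 count of Xist, the RNA of the inactive X chromosome, and the other 4 had 17227 to 22253. Light damage replicate 3 thus stood apart from replicates 1 and 2 in Y-linked and anterior RNA, and results that rest on it are given with and without it. Without it, every remaining light damage library had Y-linked counts and no A74 library did. A74 and the absence of Y-linked RNA cannot then be told apart in A74 against light damage.

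Per kilobase of transcript, the components fell into an abundant and a scarce class. Averaged over 9 libraries, Irf3 stood at 31.2 CPM per kilobase, Tbk1 at 19.4 and Samhd1 at 12.4. Their ranges over single libraries did not overlap one another, at 25.3 to 38.3 for Irf3, 18.2 to 21.6 for Tbk1 and 11.2 to 13.7 for Samhd1. The other 5 detected components averaged 0.592 for Ifi204, 0.536 for Zbp1, 0.475 for Sting1, 0.194 for Ikbke and 0.139 CPM per kilobase for Cgas, and the ranges of neighbours in this order overlapped. This order rested on light damage replicates 1 and 2. In control, Sting1 averaged 0.456, Ikbke 0.232, Cgas 0.147, Zbp1 0.106 and Ifi204 0.0380 CPM per kilobase, so that Ifi204 was last and not first of the 5. The abundant class thus held Irf3, Tbk1 and Samhd1, while the sensors and the adaptor were scarce.

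**Figure D1:**
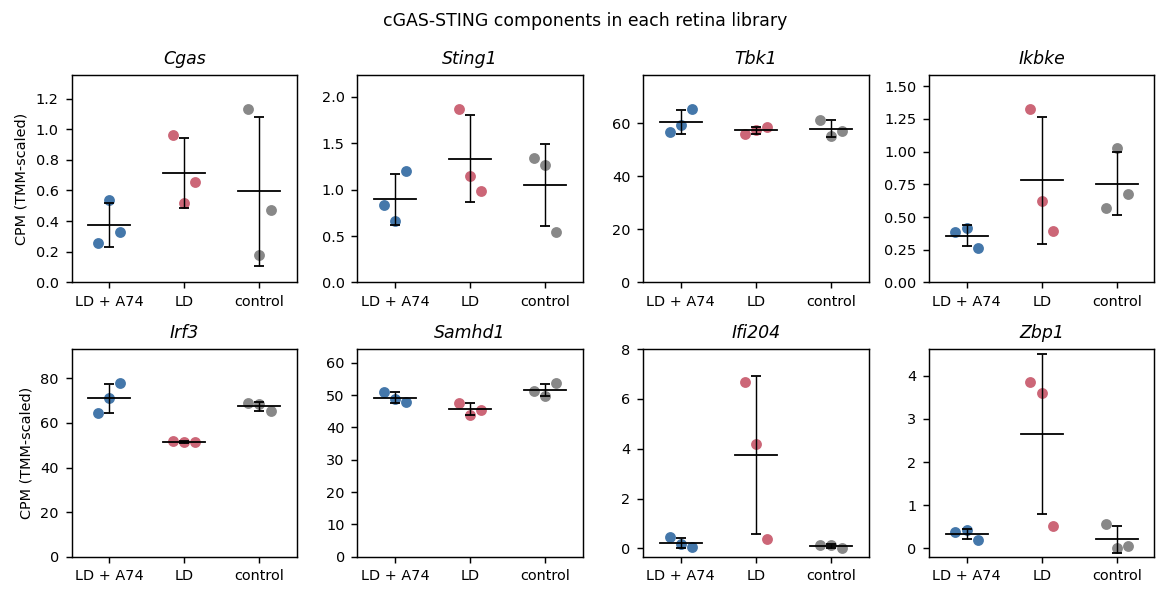
Level of 8 cGAS-STING components in each library, as TMM-scaled CPM on a linear axis, with light damage and A74 (LD + A74), light damage (LD) and control from left to right. Points are libraries in the order of their replicate numbers, the bar is the mean and the error bar 1 SD (n = 3). The 3 light damage libraries of Irf3 lie at 51.3 to 52.0 CPM, under all other libraries, and Ifi204 and Zbp1 are high in 2 light damage libraries.

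Irf3 (ENSMUSG00000003184) encodes the transcription factor that TBK1 phosphorylates. It had 1009, 1187 and 1170 counts with A74, 864, 987 and 783 counts after light damage, and 978, 1132 and 967 counts in control. Scaled to library size, these were 64.3, 71.0 and 77.7 CPM with A74, 52.0, 51.3 and 51.4 CPM after light damage, and 69.1, 68.3 and 65.2 CPM in control. All light damage libraries were thus lower than every library of both other groups, and light damage replicate 3 was level with replicates 1 and 2. The log2 fold change was 0.46 for A74 against light damage (SE 0.07, edgeR adjusted p = 0.000442) and −0.39 for light damage against control (SE 0.07, edgeR adjusted p = 0.000764). A74 against control gave 0.07 with a 95% interval from −0.07 to 0.22 (edgeR adjusted p = 0.658). Both calls held in all 20 alternative analyses, over which the log2 fold change ran from 0.32 to 0.53 with A74 and from −0.41 to −0.34 after light damage. Irf3 and Samhd1 were the 2 of the 6 filtered components whose groups did not overlap in these comparisons, which held for 35.2% of all genes for A74 against light damage and 40.6% for light damage against control.

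Rod markers moved in the same directions as Irf3. Of 9 rod markers, 6 rose with A74 relative to light damage and none fell, and 5 fell after light damage relative to control and none rose, with median log2 fold changes of 0.47 and −0.53. In these directions, 9.07% and 12.8% of all genes were called. In bulk retina, fewer cells of a type and less RNA per cell cannot be told apart, and the part of rod RNA in the Irf3 level was not tested. Among single libraries the 2 differed, since the rod sum was 31401, 39378 and 45974 CPM in light damage replicates 1 to 3, while Irf3 stayed between 51.3 and 52.0 CPM. The genes closest to Irf3 over the 9 libraries, by Pearson correlation of log2 CPM among 15253 candidates, were Hemk1 at 0.983, Zfp410 at 0.981 and Csgalnact2 at 0.975. These are 3 of the highest values out of many, share the same libraries and are given as a description. Bcl2l12, whose start lies head to head with that of Irf3 in RefSeq, had 22 to 52 counts and was not called, with log2 fold changes of −0.20 for A74 against light damage (edgeR adjusted p = 0.655) and 0.13 for light damage against control (edgeR adjusted p = 0.777).

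The 250 bases before the Irf3 start are shown because Irf3 was the component called in both light damage comparisons. They are from RefSeq (GRCm38.p6, a build other than the GRCm39 of the counts) and are printed without capitals, since the search motif described below with the Ifi200 genes had no match in them.
Irf3, chr7:44997398-44997647, strand +: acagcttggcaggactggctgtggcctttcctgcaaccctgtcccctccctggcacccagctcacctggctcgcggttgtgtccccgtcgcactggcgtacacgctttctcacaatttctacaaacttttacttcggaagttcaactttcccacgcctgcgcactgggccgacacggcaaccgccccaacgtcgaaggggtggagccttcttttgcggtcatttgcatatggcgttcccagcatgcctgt

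Ifi204 (ENSMUSG00000073489) belongs to the PYHIN (Ifi200) family of DNA-binding proteins and is often treated as a mouse counterpart of human IFI16. It had 7, 3 and 1 counts with A74, 111, 81 and 6 counts after light damage, and 2, 2 and 0 counts in control. Light damage replicates 1 and 2 were high, and replicate 3, at 6 counts, lay just above control and under A74 replicate 1 in number and scaled level. Pooled over libraries, light damage held 44.1 times the control level (95% interval 17.0 to 164), and A74 held 0.0598 times the light damage level (95% interval 0.0294 to 0.109). These intervals cover counting error only and not the spread between libraries. Over libraries, the exact two-sided permutation test of the mean CPM gave p = 0.2 for A74 against light damage and p = 0.1 for light damage against control, and 3 against 3 libraries cannot give less than 0.1.

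Zbp1 (ENSMUSG00000027514) encodes a sensor of Z-form DNA and RNA that can start necroptosis. It had 6, 7 and 3 counts with A74, 64, 69 and 8 counts after light damage, and 8, 0 and 1 counts in control. As for Ifi204, light damage replicates 1 and 2 were high and replicate 3 was near the level of control replicate 1, so that light damage and control overlapped. Pooled counts gave 0.122 times the light damage level with A74 (95% interval 0.0680 to 0.205) and 14.0 times the control level after light damage (95% interval 7.15 to 31.2), again for counting error only. The exact two-sided permutation test gave p = 0.1 for A74 against light damage, where the groups did not overlap, and p = 0.2 for light damage against control.

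Both genes missed the filter because it asks for the minimum count in 3 libraries. With a filter of at least 30 counts over all libraries, 19702 genes were tested, of which 15.8% were called for A74 against light damage, 22.5% for light damage against control and 0.731% for A74 against control. Groups that did not overlap made up 32.5%, 37.6% and 21.4% of these genes. Both genes passed this filter through light damage, which held 198 of the 213 counts of Ifi204 and 141 of the 166 of Zbp1, so their fits are given as a description. For light damage against control the fitted log2 value was 5.31 for Ifi204 (SE 1.31, edgeR adjusted p = 0.0276) and 3.70 for Zbp1 (SE 1.01, edgeR adjusted p = 0.0336). A74 against light damage gave −3.98 for Ifi204 (SE 1.10, edgeR adjusted p = 0.0541) and −2.96 for Zbp1 (SE 0.91, edgeR adjusted p = 0.0660), neither of them called. Both were called in that comparison with the tissue set as a term, at −3.05 and −2.21 (edgeR adjusted p = 4.02e-04 and 0.0387), where the tissue sets are the libraries with more and with less anterior RNA, and with the replicate number as a block, at −3.97 and −2.90 (edgeR adjusted p = 1.40e-05 and 0.00239). A74 against control gave 1.33 for Ifi204 (edgeR adjusted p = 0.822) and 0.73 for Zbp1 (edgeR adjusted p = 0.858).

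The calls for both genes depended on single libraries, while their log2 fold changes kept their signs in both light damage comparisons. Without light damage replicate 3, both were called in both comparisons, at −4.50 and 5.83 for Ifi204 and −3.43 and 4.17 for Zbp1 (A74 against light damage, then light damage against control). That fit leaves only light damage libraries with Y-linked counts, where both genes were high, against A74 libraries without such counts. When each of the 9 libraries was left out in turn under the filter on total counts, the light damage call was kept 4 times for Ifi204 and 2 times for Zbp1, with log2 fold changes of 4.64 to 5.83 and 3.07 to 6.09. It was lost for Ifi204 without any 1 of control 1, 2 or 3, light damage 2 or A74 2, and for Zbp1 without any 1 of control 2 or 3, light damage 1 or 2, or A74 1, 2 or 3, with adjusted p up to 0.0882 and 0.105. A74 against light damage was called 1 time of 9 for Ifi204, without light damage 3, and 2 times for Zbp1, without light damage 3 or control 1, with log2 fold changes of −4.83 to −3.31 and −3.43 to −2.62. Under the main filter, which both genes passed without any 1 control or A74 library or without light damage 3, the light damage call was also kept without A74 2 for Ifi204 (edgeR adjusted p = 0.0433) and without A74 1, 2 or 3 for Zbp1 (edgeR adjusted p = 0.0480, 0.0484 and 0.0468). Zbp1 was then also called for A74 against light damage without control 2 (edgeR adjusted p = 0.0455). Under either filter both genes were tested through light damage, where they were high, so calls kept or lost here are a description.

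The fits of both genes in this paragraph used the filter on total counts, which they passed through light damage, so they are a description. Within the libraries with more anterior RNA, A74 had replicate 1 alone, which was assumed to vary like the others. There the log2 fold change of Ifi204 was −3.58 for A74 against light damage and 5.30 for light damage against control. Those of Zbp1 were −3.25 and 3.78. Within the libraries with less anterior RNA, where light damage and control each had replicate 3 alone, Ifi204 had 3 and 1 counts with A74, 6 counts after light damage and 0 in control, and Zbp1 had 7 and 3 counts with A74, 8 counts after light damage and 1 in control, and none was called. The difference between the 2 sets in A74 against light damage (more minus less anterior RNA) was −1.99 for Ifi204 (SE 1.21, edgeR adjusted p = 0.526) and −2.53 for Zbp1 (SE 1.22, edgeR adjusted p = 0.410). It was not called for any component in any comparison, but it rests on single libraries and does not show that the sets were alike. With Y-linked counts as a term, A74 against light damage was −0.74 for Ifi204 (edgeR adjusted p = 0.710) and −0.73 for Zbp1 (edgeR adjusted p = 0.711). In the same fit A74 against control was 4.58 for Ifi204, which was called (edgeR adjusted p = 0.0460), and 2.93 for Zbp1, which was not (edgeR adjusted p = 0.167). No A74 library had Y-linked counts, so A74 was compared there through light damage replicate 3 and control replicate 3. A74 and the absence of Y-linked RNA can be told apart only through these libraries, of which light damage replicate 3 had 1 count of Xist and each A74 library at least 17227.

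Microglia markers were high in the same light damage libraries. The 12 markers summed to 71.2, 98.4 and 79.8 CPM with A74, 340, 271 and 199 CPM after light damage, and 70.4, 73.5 and 64.8 CPM in control. Of the 12, 11 fell with A74 relative to light damage, and 10 rose after light damage relative to control. The corresponding shares of all genes were 9.19% and 13.0%. Light damage replicate 3 kept a high microglia sum but had few counts of Ifi204 and Zbp1. The part of microglia in these levels was not tested. Of the infiltrating monocyte markers, Ccr2 had at most 7 counts, Ly6c2 at most 4 and Plac8 and Chil3 at most 1 in a library, while Vcan, which is also on the anterior tissue list, had 18 to 409. Of 6 T cell markers, Cd3e was at 0 in all libraries, Cd3d and Cd3g had at most 1 count, Cd8a at most 2 and Cd4 at most 9. Lck, a kinase gene of T cells, had 9, 17 and 19 counts with A74, 36, 30 and 17 counts after light damage, and 8, 19 and 10 counts in control. It was highest in light damage replicates 1 and 2 but was not called, at −0.76 for A74 against light damage (edgeR adjusted p = 0.166) and 1.00 for light damage against control (edgeR adjusted p = 0.0648).

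**Figure D2:**
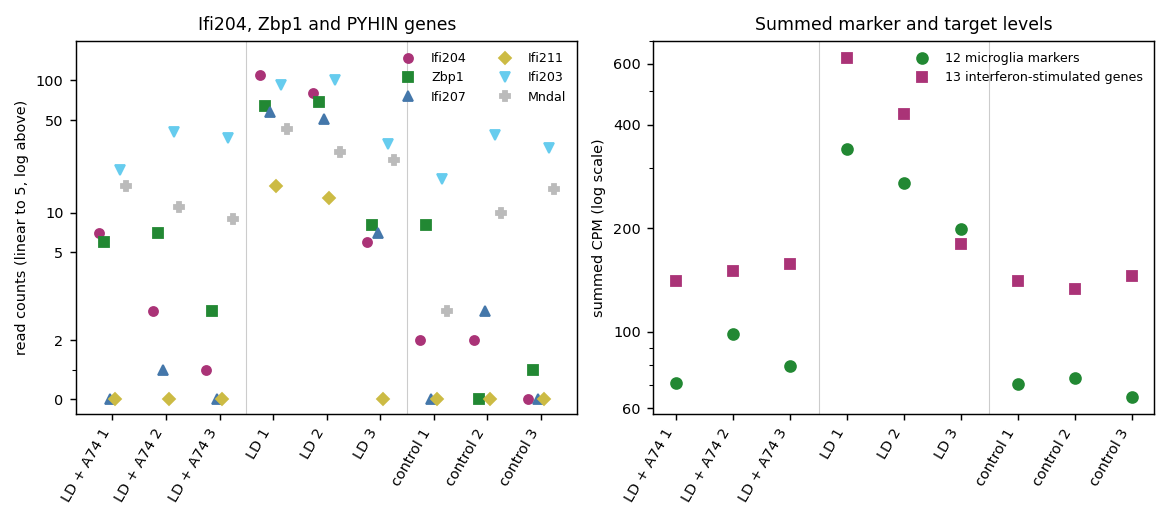
Left, read counts of Ifi204, Zbp1 and 4 PYHIN genes in each library, on an axis that is linear to 5 and logarithmic above. Right, summed CPM of 12 microglia markers and 13 interferon-stimulated genes on a log axis, with the same library order. Light damage replicates 1 and 2 are the highest libraries for all 6 genes and both sums, and light damage replicate 3 lies at 6 counts of Ifi204 and 8 of Zbp1.

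The other genes of the Ifi200 cluster differed in level and response. Of 14 listed genes, 12 matched the table, 4 passed the filter, 3 of the 4 rose after light damage and 2 fell with A74 relative to light damage. Over all genes tested, 13.0% rose after light damage and 9.19% fell with A74. Ifi202b had 3, 1 and 8 counts with A74, 143, 141 and 25 counts after light damage, and 3, 1 and 2 counts in control, a log2 fold change of −4.49 with A74 (edgeR adjusted p = 0.00732) and of 5.40 after light damage (edgeR adjusted p = 0.00363). Ifi202b passed the filter only through light damage, where it was high, so its fit is a description. Mndal gave −1.32 (edgeR adjusted p = 0.0316) and 1.63 (edgeR adjusted p = 0.00922) in the same comparisons. Ifi203 rose after light damage by 1.17 (edgeR adjusted p = 0.0263) and missed the threshold with A74 at −1.05 (edgeR adjusted p = 0.0520). Aim2, the inflammasome DNA sensor of the family, was not called, at −0.40 (edgeR adjusted p = 0.449) and 0.42 (edgeR adjusted p = 0.398).

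Of the 8 family members under the filter, 2 were at 0 in all libraries. Ifi207 had 0, 1 and 0 counts with A74, 58, 51 and 7 counts after light damage, and 0, 3 and 0 counts in control. Ifi211 had 16, 13 and 0 counts after light damage and none in the other groups, and Ifi209 had 8, 8 and 3 counts after light damage and none in the other groups. Ifi208 and Ifi214 had at most 4 counts in a library, and Ifi213 at most 2. Copies in this family resemble each other, and 20.0% of the 50-base stretches of Ifi204 transcripts also occur in another gene, most often Mndal, so the division of reads among them is uncertain. Without light damage replicate 3, 6 of the family passed the filter, and 5 were called higher after light damage and 5 lower with A74. The added genes, Ifi207 and Ifi211, passed through light damage replicates 1 and 2, where they were high, so these counts are a description.

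The upstream stretches of 4 of these genes are shown because they share a match to the core of the interferon-stimulated response element, which is bound by interferon regulatory factors and was searched as 2 copies of GAAA with any 2 bases between them. The search covered both strands, with no overlapping second motif, in RefSeq windows from 250 bases before to 50 after each start. The motif was present in 9 of the 12 Ifi200 genes with a window, or 75.0%, and in 3.99% of 27025 genes. Copies in this family resemble each other, so the 9 are not separate cases. Other lists also held the motif, with 11 of 18 interferon genes, 6 of 11 interferon-stimulated genes and 2 of 5 RNA sensing genes. It was in 1 of 5 ZBP1 partners and 1 of 7 nucleic acid clearance genes, and in no gene of the remaining lists. The motif is thus not particular to the Ifi200 genes. Ifi202b, which had the largest called fold changes of the family, Ifi209 and Aim2 had a window without it. Of the 9 with a match, Ifi205, Ifi206, Ifi208, Ifi213 and Ifi214 had 0 to 4 counts in a library, too few to compare groups. Capitals mark the match, each stretch is 50 bases of GRCm38.p6 written along the strand of its gene, and the Mndal and Ifi203 stretches have the same letters.
Mndal, chr1:173880194-173880243, strand -: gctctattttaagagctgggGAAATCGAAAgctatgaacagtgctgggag
Ifi203, chr1:173942498-173942547, strand -: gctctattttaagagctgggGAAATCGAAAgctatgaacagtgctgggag
Ifi207, chr1:173741821-173741870, strand -: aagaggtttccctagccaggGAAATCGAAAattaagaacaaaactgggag
Ifi211, chr1:173913054-173913103, strand -: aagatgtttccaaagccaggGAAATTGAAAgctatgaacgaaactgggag
None of the 7 pathway components with a window held the motif. Ifi204, Zbp1 and Sting1 had no window at hand. A match describes letters in the window and not a bound site, and a window without a match says nothing about binding.

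Cgas (ENSMUSG00000032344), which makes cGAMP, was at the edge of detection. It had 4, 9 and 5 counts with A74, 16, 10 and 10 counts after light damage, and 16, 3 and 7 counts in control. The groups overlapped in every comparison. The log2 fold changes were −0.89 for A74 against light damage (SE 0.56, edgeR adjusted p = 0.293) and 0.29 for light damage against control (SE 0.53, edgeR adjusted p = 0.740). The 95% interval of the second ran from −0.83 to 1.41, which includes a level 2-fold higher than control.

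Sting1 (ENSMUSG00000024349), the adaptor that cGAMP binds, was also scarce. It had 13, 11 and 18 counts with A74, 31, 22 and 15 counts after light damage, and 19, 21 and 8 counts in control. The groups overlapped here too. The log2 fold changes were −0.58 for A74 against light damage (95% interval −1.41 to 0.25, edgeR adjusted p = 0.328) and 0.34 for light damage against control (95% interval −0.47 to 1.15, edgeR adjusted p = 0.565). The genes with the most similar pattern over the 9 libraries were Sfxn3, Galnt12 and Dse, with Pearson correlations of 0.973, 0.960 and 0.959.

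The 2 kinases differed in level. Tbk1 (ENSMUSG00000020115), the main IRF3 kinase, had 891, 993 and 984 counts with A74, 933, 1102 and 894 counts after light damage, and 869, 914 and 850 counts in control. It averaged 60.5 ± 4.4 CPM with A74, 57.4 ± 1.3 CPM after light damage and 57.9 ± 3.2 CPM in control (SD, n = 3 each), and the groups overlapped. Its log2 fold changes were 0.08 for A74 against light damage (95% interval −0.07 to 0.22) and −0.01 for light damage against control (95% interval −0.16 to 0.13), the narrowest intervals of the pathway beside those of Irf3 and Samhd1. Ikbke (ENSMUSG00000042349), the inducible relative of Tbk1, had 6, 7 and 4 counts with A74, 22, 12 and 6 counts after light damage, and 8, 17 and 10 counts in control. All A74 libraries were lower than all control libraries in CPM, which held for 1 of the 6 components and 22.8% of all genes in either direction, 11.0% lower, but it was not called in either A74 comparison, at −1.11 for A74 against light damage (SE 0.51, edgeR adjusted p = 0.138) and −1.08 for A74 against control (SE 0.52, edgeR adjusted p = 0.320). Without light damage replicate 3 the first was called, at −1.40 (edgeR adjusted p = 0.0497), in a fit where A74 and the absence of Y-linked RNA cannot be told apart.

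Samhd1 (ENSMUSG00000027639), a phosphohydrolase that limits the cell's nucleotide pool, had a direction like that of Irf3 without passing the test. It stood at 51.0, 48.9 and 47.9 CPM with A74, 47.5, 43.8 and 45.5 CPM after light damage, and 51.3, 49.7 and 53.6 CPM in control, from 693 to 843 counts in a library. Light damage libraries lay below all others. The log2 fold changes were 0.11 for A74 against light damage (SE 0.07, edgeR adjusted p = 0.252) and −0.18 for light damage against control (SE 0.07, edgeR adjusted p = 0.0556). With the tissue set or Y-linked counts as a term, the second was called, at adjusted p = 0.0496 and 0.0480.

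Trex1 (ENSMUSG00000049734), the exonuclease that degrades cytosolic DNA, had 0 counts in all 9 libraries. All 1147 of its exonic bases lie inside exons of Atrip in the GRCm38 annotation, and 95.8% of its 50-base stretches also occur in another gene, most often Atrip. Reads of the 2 genes cannot be told apart here, so the 0 is no measure of Trex1. Atrip, a DNA damage signalling gene, had 956, 969 and 947 counts with A74, 684, 902 and 785 counts after light damage, and 831, 890 and 809 counts in control. It was called in both comparisons, at 0.38 for A74 against light damage (edgeR adjusted p = 0.00364) and −0.26 for light damage against control (edgeR adjusted p = 0.0223).

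Ifnb1 (ENSMUSG00000048806), which encodes interferon-β, had 0 counts in all 9 libraries. A count of 0 allows a level of up to 0.156 to 0.212 CPM in a library, for counting error only. The 19 other listed type I and III interferon genes had at most 1 count in a library, and 16 of them were at 0 in all. A difference in interferon transcripts between groups was therefore not detectable at this depth.

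**Figure D3:**
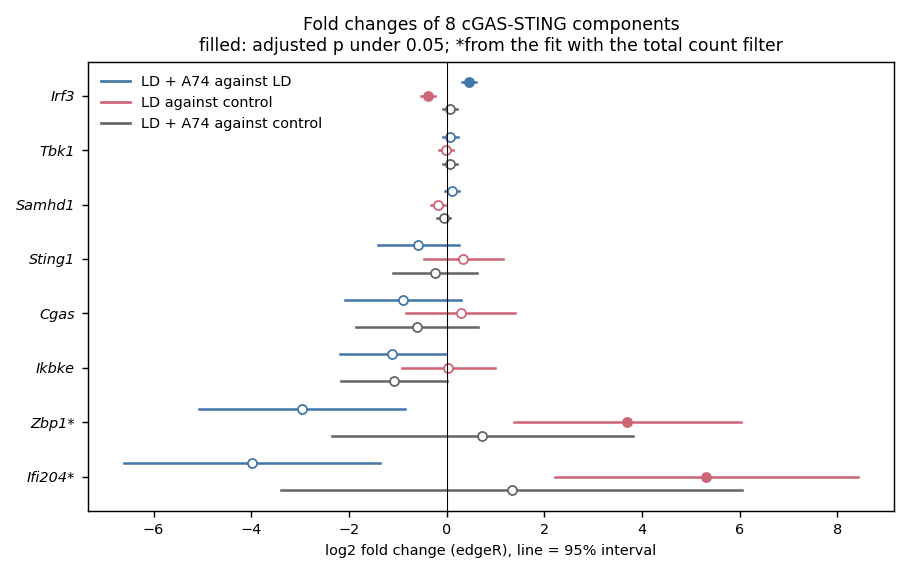
Log2 fold changes of 8 components with 95% intervals for light damage with A74 against light damage, light damage against control, and light damage with A74 against control. Filled points have an edgeR adjusted p under 0.05, and Ifi204 and Zbp1 come from the fit with the filter on total counts. Irf3 is called at 0.46 and −0.39, and the intervals of Cgas, Sting1 and Ikbke are several times as wide as those of Irf3, Tbk1 and Samhd1.

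Genes that interferon and IRF3 are known to induce responded, although no interferon gene had more than 1 count in a library. Of 13 listed, 11 passed the filter, 6 fell with A74 relative to light damage and 9 rose after light damage relative to control, with median log2 fold changes of −3.31 and 3.51. The shares of all genes called in these directions were 9.19% and 13.0%. Oasl2, an oligoadenylate synthetase-like gene, had 73, 47 and 34 counts with A74, 2014, 1160 and 203 counts after light damage, and 28, 21 and 28 counts in control. Cxcl10, a chemokine gene, had 2, 2 and 0 counts with A74, 29, 81 and 10 counts after light damage, and 0, 3 and 0 counts in control. In both genes light damage replicate 3 was lowest of its group and above the other groups. Their log2 fold changes were −4.32 and 5.26 for Oasl2 (edgeR adjusted p = 0.0218 and 0.0109) and −4.62 and 4.94 for Cxcl10 (edgeR adjusted p = 0.00892 and 0.00558), A74 against light damage first. Cxcl10 passed the filter only through light damage, where it was high, so its fit is a description. Without light damage replicate 3, all 12 genes then tested were called in both comparisons. That fit leaves out the light damage library with the lowest sum of the 13 genes, 180 CPM against 626 and 430 CPM in replicates 1 and 2. Its filter also asks for fewer libraries, so 12 genes were tested and not 11, and the count is a description. In that fit A74 and the absence of Y-linked RNA cannot be told apart for A74 against light damage. Without A74 replicate 1, 6 of 12 rose after light damage and 2 of 12 fell with A74, and with Y-linked counts as a term none of 11 fell with A74. Irf3 moved opposite to the called genes of this list in both comparisons.

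RNA sensors share the TBK1 and IRF3 step with STING. Among all genes, 9.19% fell with A74 relative to light damage and 13.0% rose after light damage. Of 6 listed RNA sensing genes, 4 fell with A74 relative to light damage and the same 4 rose after light damage relative to control. These were Tlr3, the endosomal receptor, at −1.20 and 1.68 (edgeR adjusted p = 0.00151 and 9.50e-05), Dhx58 at −1.86 and 1.76, Ddx58 at −2.19 and 2.34, and Ifih1 at −1.82 and 2.17, A74 against light damage first. The adaptors Mavs and Ticam1 were not called. Without A74 replicate 1, and also with Y-linked counts as a term, 2 of the 6 fell with A74. Of 5 listed partners of ZBP1 in cell death, Casp8, an apoptosis protease, was called among the 3 that passed the filter, at −1.40 with A74 (edgeR adjusted p = 0.00321) and 1.53 after light damage (edgeR adjusted p = 0.00109). Ripk3 and Mlkl, which carry out necroptosis, had at most 6 and 4 counts in a library.

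Several genes for kinase adaptors and the NF-κB arm moved in the directions of Irf3. Of 11 genes for TBK1 and IKK adaptors and the NF-κB arm, 3 rose with A74 relative to light damage and 4 fell after light damage relative to control, and none went the other way. Of all genes, 9.07% and 12.8% were called in these directions. Azi2 had 3928, 4060 and 4045 counts with A74, 2753, 3419 and 3093 counts after light damage, and 3382, 4317 and 4455 counts in control. Its log2 fold changes were 0.48 (edgeR adjusted p = 0.00257) and −0.55 (edgeR adjusted p = 0.000587). Optn, an autophagy receptor that binds TBK1, gave 0.48 (edgeR adjusted p = 0.000807) and −0.46 (edgeR adjusted p = 0.000577), Chuk 0.25 and −0.23, and Sike1, a suppressor of these kinases, 0.15 (edgeR adjusted p = 0.135) and −0.19 (edgeR adjusted p = 0.0426). Without light damage replicate 3, 5 rose and 2 fell with A74, and 5 fell and 1 rose after light damage.

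Among 21 genes of STING trafficking, modification and turnover, 1 rose and 2 fell with A74 relative to light damage, and 3 rose and 3 fell after light damage relative to control. These counts were near the shares of all genes called in the 2 comparisons, 18.3% and 25.8%. Usp18, an interferon-stimulated protease, had 16, 19 and 10 counts with A74, 352, 276 and 37 counts after light damage, and 19, 13 and 14 counts in control, with log2 fold changes of −3.74 (edgeR adjusted p = 0.0284) and 3.64 (edgeR adjusted p = 0.0225). Trim56, a ubiquitin ligase of the pathway, gave −0.997 (edgeR adjusted p = 0.0390) and 0.89 (edgeR adjusted p = 0.0449). The median log2 fold change of the list was −0.02 for A74 against light damage and −0.03 for light damage against control, close to that of all genes. With Y-linked counts as a term none of the 21 was called for A74 against light damage.

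Of 10 genes for cGAMP hydrolysis and transport that passed the filter, 2 rose and 1 fell with A74, and 2 rose and 3 fell after light damage. For this and the next 2 lists, the shares of all genes called were 18.3% for A74 against light damage and 25.8% for light damage against control. P2rx7, the ATP-gated channel of the series title, had 8, 14 and 9 counts with A74, 36, 31 and 16 counts after light damage, and 3, 12 and 7 counts in control, with log2 fold changes of −1.30 (edgeR adjusted p = 0.0325) and 1.74 (edgeR adjusted p = 0.00648). P2rx7 passed the filter only through light damage, where it was high, so its fit is a description. Slc46a1 gave 0.31 (edgeR adjusted p = 0.00572) and −0.34 (edgeR adjusted p = 0.00197), and Slc19a1, a folate carrier, 0.40 (edgeR adjusted p = 0.0109) and −0.31 (edgeR adjusted p = 0.0285). Of 8 nucleic acid clearance and editing genes, Pld4 and Pld3, which are lysosomal exonucleases, fell with A74 and rose after light damage, at −2.17 and 2.25 for Pld4 and −0.26 and 0.21 for Pld3. Of 10 other DNA sensing genes, Hmgb1 fell with A74 at −0.26 (edgeR adjusted p = 0.00508), and Hmgb1 and Banf1 rose after light damage at 0.17 and 0.31. With A74 against control, none of the 84 genes of these lists that were tested was called by edgeR or DESeq2, and 7 had an unadjusted edgeR p under 0.05.

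**Figure D4:**
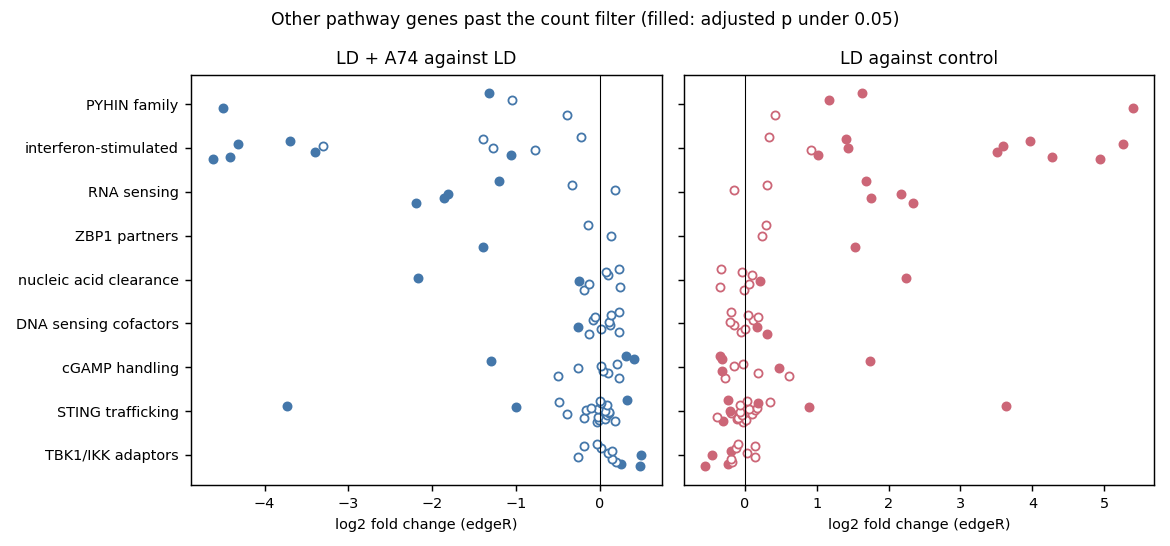
Log2 fold changes of the other pathway genes past the count filter, 1 point per gene, with light damage with A74 against light damage on the left and light damage against control on the right. Filled points have an edgeR adjusted p under 0.05. Called PYHIN, interferon-stimulated and RNA sensing genes lie on the negative side on the left and the positive side on the right. Called genes of the list for kinase adaptors and the NF-κB arm lie on the opposite sides.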

How the data were processed

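Retinal RNA was sequenced in 9 libraries, which were grouped and numbered as their titles give it. The authors deposited 1 table of raw read counts per gene, whole numbers that were not normalized, as judged from their unequal totals. RSEM 1.3.1, Bowtie2, DESeq2 1.4.5 and GRCm39 appear, per the submitters' processing notes, but their roles do not. The sources used here do not say whether counts are rounded RSEM estimates or used strand, so overlapping and near-identical genes are uncertain.

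Genes were kept by filterByExpr (minimum count 10), scaled by TMM and tested across all 9 libraries with the robust quasi-likelihood test of edgeR 4.0.16 in R 4.3.3, with Benjamini-Hochberg adjustment over all 17272 genes and calls at an adjusted p under 0.05. Components under the filter were given as raw counts, with exact permutation tests and a fit that needed at least 30 counts in total. Levels are CPM with TMM factors, and log2 CPM used a prior count of 2.

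Genes named are all 10 components, P2rx7, and up to 4 per list and comparison with the smallest adjusted p. The 3 most similar genes are named for Irf3 and Sting1. Beside these, neighbours of components, low Ifi200 genes, genes near 0 and markers were named after their values were seen. Similar genes were ranked for every component with at least 1 CPM in a group, but those of Tbk1, Samhd1, Ifi204 and Zbp1 are not named. The components and lists were chosen with earlier results of these data known. Transcript lengths and shared stretches come from GENCODE M21 (GRCm38).

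Alternatives were DESeq2 size factors, DESeq2 1.42.0, no filter, the total count filter, 2 groups alone, and the replicate number as a block. Others left out each library, or light damage 3 and A74 1 together. The rest used a term for the tissue set, a term for Y-linked counts, or fits within each tissue set. Deviations of same-numbered light damage and control libraries had correlations of 0.116, 0.246 and 0.311. Libraries of unlike number were not compared, so these values do not show that the numbers pair the libraries. The main tests did not pair them. The submitters' library names carry other numbers for light damage than the titles do, and replicates 1 and 2 of both groups share the Y-linked RNA that replicate 3 lacks and the anterior RNA of which it had little. Replicate libraries differed by more than sampling noise.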

Additional observations from a re-analysis of the deposited data

How the results depend on the processing

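Irf3 kept its call and direction in both light damage comparisons in all 20 alternatives, with adjusted p up to 0.0116 for A74 against light damage and 0.0455 for light damage against control. Of 356 log2 fold changes of the 6 filtered components under alternatives, 353 kept their direction or stayed uncalled and 3 became called, namely Samhd1 under 2 of them and Ikbke under 1, as given above, and 17 uncalled values changed sign. Components called for A74 against light damage numbered 2 with no filter, 3 without light damage 3 and A74 1 together, and 1 to 4 with single libraries left out. For light damage against control they numbered 2 with no filter, 3 with the total count filter, 2 with the tissue set and 2 with Y-linked counts as a term, 3 without both libraries, and 1 to 3 with single libraries left out. Part of this comes from construction, since a filter that asks for fewer libraries or counts lets Ifi204 and Zbp1 be tested. With 2 groups alone, 4 components were tested in each A74 comparison.

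Genes called for A74 against light damage numbered 745 with Y-linked counts as a term, 677 within the less anterior set and 1717 to 4514 with single libraries left out, against 3153. For light damage against control they numbered 1103 within the less anterior set and 2818 to 5467 with single libraries left out, against 4452. For A74 against control they numbered 718 with no filter, 322 with DESeq2, 558 with 2 groups alone, 96 with Y-linked counts as a term, 934 without both libraries, 398 within the less anterior set and 21 to 416 with single libraries left out, against 154; the cause was not tested.

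The replicate block, which treats same-numbered libraries as pairs, gave 4588 called genes for light damage against control and changed no call of a component past the filter. It gave 3362 for A74 against light damage and 136 for A74 against control, where same-numbered libraries did not all deviate together (lowest correlations −0.07 and −0.09). With the total count filter the block called Ifi204 (edgeR adjusted p = 1.40e-05) and Zbp1 (edgeR adjusted p = 0.00239) for A74 against light damage, as did the tissue set term (edgeR adjusted p = 4.02e-04 and 0.0387). Both genes passed that filter through light damage, where they were high, so these calls are a description. In the fit with neither block nor term, neither gene was called. Differences in mean CPM with libraries left out ran from −5.21 to −2.07 for Ifi204 and −3.39 to −1.72 for Zbp1 with A74 against light damage, from 2.22 to 5.36 and 1.85 to 3.51 for light damage against control, and from 0.0356 to 0.226 and 0.0172 to 0.300 for A74 against control. Depth limits Cgas, Sting1 and Ikbke, and counts of RNA do not show phosphorylation or location of the proteins.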
